A study of Mus musculus with 6 samples.

Results

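The 9 genes described here handle lipid in myeloid cells: Lpl and Cd36 (uptake), Fabp4 and Fabp5 (carriage inside the cell), Plin2 (storage), Lipa (release in the lysosome), and Abca1, Abcg1 and Apoe (efflux). Every probe set that the platform annotation gives to one of these symbols alone was taken, which made 21 of 45101 probe sets on the array. Probe sets annotated to several genes were left out beforehand, so any that these genes share with others are not covered. Their values were measured in 6 samples of cells sorted from femur and tibia marrow. The donors were female HdcGFP mice (C57BL/6 background), in which green fluorescent protein reports Hdc, the gene of the histamine-making enzyme. GFP_plus are the CD11b+Gr1+ cells with positive or high reporter signal (HdcGFP+/hi, 3 samples), and GFP_min are the CD11b+Gr1+ cells with negative or low signal (HdcGFP-/lo, 3 samples). All 6 samples carry the reporter and neither group received a treatment that the labels name. Age, the number of animals per sample and any pooling are not given in the labels. Since nothing says that the 3 samples of a group came from separate mice, the spread behind each p-value may be a technical one. The sorted-cell label of GFP_min replicate b reads Gr1+, but its description reads Gr1-.

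Macrophages take up fatty acids that lipoprotein lipase frees from triglyceride-rich particles, and cholesterol with whole particles that scavenger receptors bind. Small binding proteins carry the fatty acids, surplus lipid is esterified into droplets coated by perilipins, and lysosomal acid lipase frees the cholesterol of ingested particles. ABC transporters then load that cholesterol onto acceptors such as apolipoprotein E, under the control of sterol-sensing nuclear receptors. Genes of this route are best known from macrophages that turn into foam cells, while maturing neutrophils are known to draw on stored lipid.

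The values are log2 expression as the authors deposited them, and a probe set was tested where 3 or more of the 6 arrays gave it a value above that array's median. Array medians ran from 2.85 to 2.88 in GFP_plus and from 2.82 to 2.84 in GFP_min, and values near these medians are taken here as dim. Correlations were 0.996 to 0.997 between arrays of the same group, and 0.978 to 0.982 across the groups. Hdc, on which the cells were sorted and which is therefore no finding, was higher in GFP_plus on both of its probe sets (by 0.82 and 0.59). The sort marker Itgam, which encodes CD11b, averaged 11.84 ± 0.13 in GFP_plus and 11.58 ± 0.23 in GFP_min (SD, n = 3 each), bright in both groups. With 3 arrays a group, their number limits precision.

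Of the 9 genes, 8 had a tested probe set and 5 changed between the sorted groups: Lpl, Apoe and Lipa were lower in GFP_plus, and Abca1 and Abcg1 were higher. Fabp5 and Plin2 were bright in both groups, Fabp4 lay just above the array medians, and Cd36 lay below them and was not tested. In limma fits with p adjusted by Benjamini-Hochberg across the 22956 probe sets that entered, 27.6% of the 10810 tested genes were lower in GFP_plus at an adjusted p under 0.05 and 21.0% were higher, 48.7% in all. Counted by probe set, 6 of the 14 tested for these genes were lower and 3 higher, beside 22.9% and 21.7% of all probe sets. The 3 lower and 2 higher members of 8 stand beside those shares, which are too large for the counts alone to set these genes apart. The size of 2 falls stands out from the rest of the set: those of Lpl and Apoe exceeded 4 log2 units, as did the falls of 97 genes in all (0.897%). Where a gene had several tested probe sets, the one with the highest mean over all arrays stands for it.

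**Figure D1:**
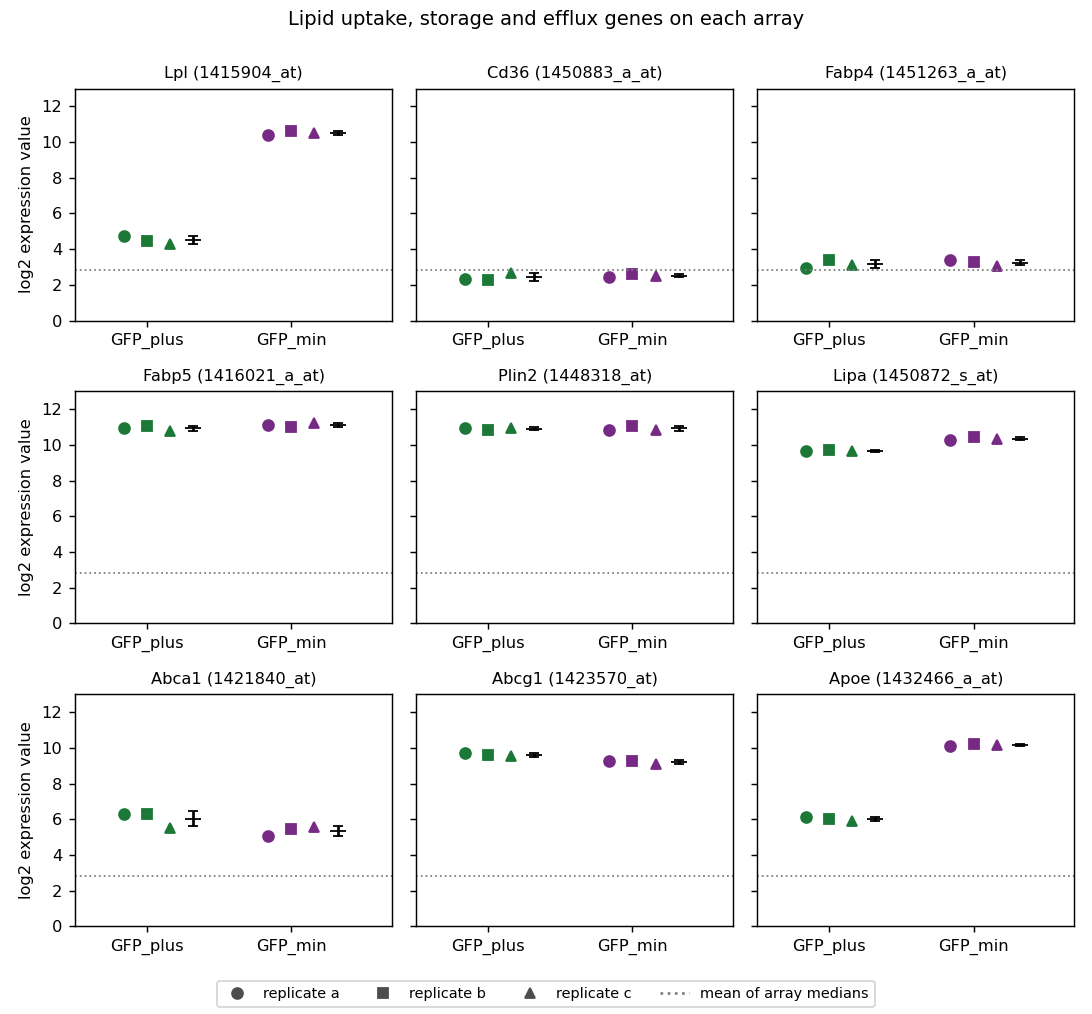
Log2 expression value (vertical axis) of the 9 genes on each array, 1 panel per gene, for the probe set that stands for the gene (Cd36: its brightest, not tested). Symbols are the replicates a, b and c, the bars beside them are the group mean ± SD (n = 3), and the dotted line is the mean of the array medians. Lpl and Apoe sit far lower in GFP_plus, Fabp5 and Plin2 lie near 11 in both groups, and Cd36 and Fabp4 lie near the dotted line in both.

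Lpl encodes lipoprotein lipase, a secreted enzyme that splits the triglycerides of circulating lipoproteins. Its brighter probe set (1415904_at) read 4.72, 4.47 and 4.30 in GFP_plus replicates a, b and c, against 10.38, 10.61 and 10.50 in GFP_min. The groups lay far apart, and even the GFP_plus values stayed above the array medians. Lpl fell by 6.00 log2 units (SE 0.13, 95% interval −6.29 to −5.71, limma adjusted p = 8.53e-10), which is 63.9-fold and the 10th largest fall among the tested genes. The second probe set (1431056_a_at) read 2.60, 3.08 and 2.91 in GFP_plus, against 7.82, 7.20 and 7.60 in GFP_min. There GFP_plus replicate a lay below its array's median and b and c just above theirs, so the size of the fall is less certain than its direction, and the difference was −4.67 (SE 0.19, limma adjusted p = 7.46e-08). In bulk samples such as these, fewer cells of a type and less RNA per cell cannot be told apart.

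Cell type markers also differed between the groups, in both directions. Over all tested genes, 27.6% were lower in GFP_plus and 21.0% higher, and the counts of short lists can lie near these shares. Of 10 tested monocyte markers, 9 were lower in GFP_plus and none was higher, with a median difference of −5.26. Their summed linear signal was 3867 to 3943 in GFP_plus and 39028 to 40831 in GFP_min. Of 11 tested neutrophil markers, 6 were higher and none was lower (median 0.19, summed signal 158278 to 169143 in GFP_plus and 149077 to 153461 in GFP_min). Resident macrophage markers were mixed, with 4 of 8 tested higher and 2 lower (summed signal 512 to 582 in GFP_plus and 836 to 866 in GFP_min). Dendritic cell markers fell in 5 of 7 tested cases and rose in 1 (median −2.12). Basophil, mast cell and eosinophil markers were higher in 6 of 6 tested cases (median 1.86, summed signal 705 to 719 in GFP_plus and 175 to 198 in GFP_min). Of 3 tested megakaryocyte and platelet markers 2 were higher, as was 1 of 2 erythroid markers, while 1 of 5 B cell markers was lower, and no others of these lists passed. Among the called markers, Cpa3, Fcer1a, Itga2b and Car1 passed the level filter through GFP_plus alone, and Cd209a through GFP_min alone. The filter thus favoured the direction in which these were called, and their counts carry little weight. The part of any of these cell types in the results on lipid genes was not tested. Adipocytes also express Lpl, Cd36 and Fabp4, and endothelial cells Cd36 and Fabp4. A defining gene of each was dim here, and the part of these cells was likewise not tested. Adipoq, the adipocyte hormone adiponectin, read 1.84 to 2.56 in GFP_plus and 1.94 to 2.25 in GFP_min, and Cdh5, the endothelial cadherin, read 1.95 to 2.00 in GFP_plus and 1.80 to 2.52 in GFP_min, all below the array medians. Of the adipocyte list 2 genes passed the level filter and Retn (0.47) was higher, while Eng was the endothelial gene that passed it and did not differ by the test (−0.21, limma adjusted p = 0.236).

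Cd36 encodes a scavenger receptor and fatty acid transporter. Its brightest probe set (1450883_a_at) read 2.34, 2.25 and 2.69 in GFP_plus and 2.44, 2.62 and 2.51 in GFP_min. All 3 of its probe sets lay below the array median on every array, and the groups overlapped on each. Without the level filter, their differences were −0.10, 0.05 and 0.06, with limma adjusted p between 0.630 and 0.805. No level of Cd36 could be read above the dim range in either group.

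Fabp4 and Fabp5 encode related cytosolic proteins that bind long-chain fatty acids, Fabp4 the form best known from adipocytes and macrophages and Fabp5 the form first known from skin. For Fabp4, 2 of 4 probe sets passed the filter. Its higher probe set (1451263_a_at) read 2.96, 3.41 and 3.10 in GFP_plus and 3.37, 3.26 and 3.08 in GFP_min, so the groups overlapped close to the array medians. The difference was −0.08 (95% interval −0.40 to 0.23, limma adjusted p = 0.651), and on the other tested probe set (1417023_a_at) it was 0.26 (−0.02 to 0.53, 0.120). The 2 estimates differ in sign and neither passed.

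Fabp5 was bright in both groups and lower in GFP_plus on 1 of its 2 probe sets. Its brighter probe set (1416021_a_at) read 10.95, 11.04 and 10.80 in GFP_plus and 11.13, 10.99 and 11.24 in GFP_min, with GFP_plus replicate b above GFP_min replicate b. The difference of −0.19 did not pass (95% interval −0.37 to −0.01, limma adjusted p = 0.0863). It passed without GFP_plus replicate b (−0.24, adjusted p = 0.0443) or GFP_min replicate b (−0.26, adjusted p = 0.0301), with array weights (−0.22, 0.0214), after quantile normalization (−0.22, 0.0465) and for the mean of both probe sets (−0.31, 0.0139). The second probe set (1416022_at) read 8.69, 8.74 and 8.45 in GFP_plus, against 9.08, 8.92 and 9.16 in GFP_min. These groups did not overlap, and the difference of −0.43 passed (SE 0.11, limma adjusted p = 0.00816). With arrays centred on the median of the tested probe sets it did not pass (−0.23, adjusted p = 0.0830). Centred on ribosomal protein genes it turned to 0.34 (adjusted p = 0.0145).

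Plin2 encodes perilipin 2, the coat protein found on lipid droplets of most cell types. It read 10.98, 10.82 and 10.98 in GFP_plus and 10.83, 11.09 and 10.86 in GFP_min. The groups overlapped throughout at a bright level. The difference was −0.005 with a 95% interval of −0.18 to 0.17 (limma adjusted p = 0.969), so that a change of more than 0.18 log2 in either direction lay outside the interval on the deposited scale.

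Lipa encodes lysosomal acid lipase, which splits cholesteryl esters and triglycerides in the lysosome. The probe set that stands for it (1450872_s_at) read 9.65, 9.72 and 9.64 in GFP_plus, against 10.26, 10.43 and 10.34 in GFP_min. The groups did not overlap, as in 59.3% of all tested genes (GFP_plus entirely below in 32.1%), and Lipa fell by 0.68 (SE 0.07, limma adjusted p = 4.19e-05, 1.60-fold). A second probe set (1423141_at) was lower by a similar or larger amount, with 7.99, 7.38 and 7.48 in GFP_plus, against 8.54, 8.77 and 8.47 in GFP_min (−0.97, SE 0.16, adjusted p = 0.000806). The third (1423140_at) did not follow, with 8.31, 8.39 and 8.62 in GFP_plus and 8.53, 8.58 and 8.43 in GFP_min (−0.07, 95% interval −0.31 to 0.16, adjusted p = 0.591). The direction of the main Lipa value turned to 0.10 (adjusted p = 0.237) when arrays were centred on ribosomal protein genes, whose median was 12.01 to 12.06 in GFP_plus and 12.78 to 12.83 in GFP_min.

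Abca1 and Abcg1 encode membrane transporters that pass cellular cholesterol to lipid-poor apolipoprotein and to high-density lipoprotein. Abcg1 (1423570_at) read 9.72, 9.60 and 9.53 in GFP_plus, against 9.27, 9.25 and 9.07 in GFP_min. All GFP_plus arrays lay above all GFP_min arrays, as they did for 27.2% of tested genes, and the rise was 0.42 (SE 0.09, 95% interval 0.23 to 0.61, limma adjusted p = 0.00324, 1.34-fold). Its second probe set (1455221_at) rose by 0.53 (SE 0.15, adjusted p = 0.0172), with values of 5.25, 5.05 and 5.27 in GFP_plus and 4.54, 4.88 and 4.57 in GFP_min. The call of the main probe set held without any single sample (adjusted p 0.00463 to 0.0208), while that of the second was lost without GFP_plus replicate a (0.50, 0.0584), GFP_min replicate a (0.46, 0.0636) or GFP_min replicate c (0.48, 0.0617).

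Abca1 was higher in GFP_plus less evenly. The 1 probe set of 3 that passed the filter (1421840_at) read 6.27, 6.28 and 5.54 in GFP_plus, against 5.06, 5.44 and 5.57 in GFP_min. GFP_plus replicate c lay inside the range of GFP_min, so the groups overlapped. The rise was 0.67 (SE 0.22, 95% interval 0.18 to 1.17, limma adjusted p = 0.0323). The call was lost without GFP_plus replicate a (0.55, adjusted p = 0.118), GFP_plus replicate b (0.55, 0.102), GFP_min replicate a (0.52, 0.113) or GFP_min replicate b (0.71, 0.0519). It held without GFP_plus replicate c (0.92, 0.00364) and without GFP_min replicate c (0.78, 0.0350). The other Abca1 probe sets lay below the array median on every array. Without the level filter they differed by 0.17 and −0.06 (limma adjusted p = 0.273 and 0.748). With arrays centred on the bacterial poly-A control RNAs, which read higher in GFP_plus (means of 5.84 to 5.95) than in GFP_min (5.41 to 5.64), neither transporter passed (Abca1 0.27, adjusted p = 0.226, and Abcg1 0.01, adjusted p = 0.934).

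Apoe encodes apolipoprotein E, which macrophages secrete and which accepts their cholesterol. Its single probe set (1432466_a_at) read 6.15, 5.99 and 5.91 in GFP_plus, against 10.10, 10.21 and 10.19 in GFP_min. The spread within each group was small beside the gap between them, and GFP_plus stayed well above the array medians. Apoe fell by 4.15 (SE 0.10, 95% interval −4.37 to −3.92, limma adjusted p = 1.70e-09), which is 17.7-fold and the 83rd largest among the tested genes. Of the efflux genes, the transporters and the apolipoprotein thus moved in opposite directions on the deposited scale.

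**Figure D2:**
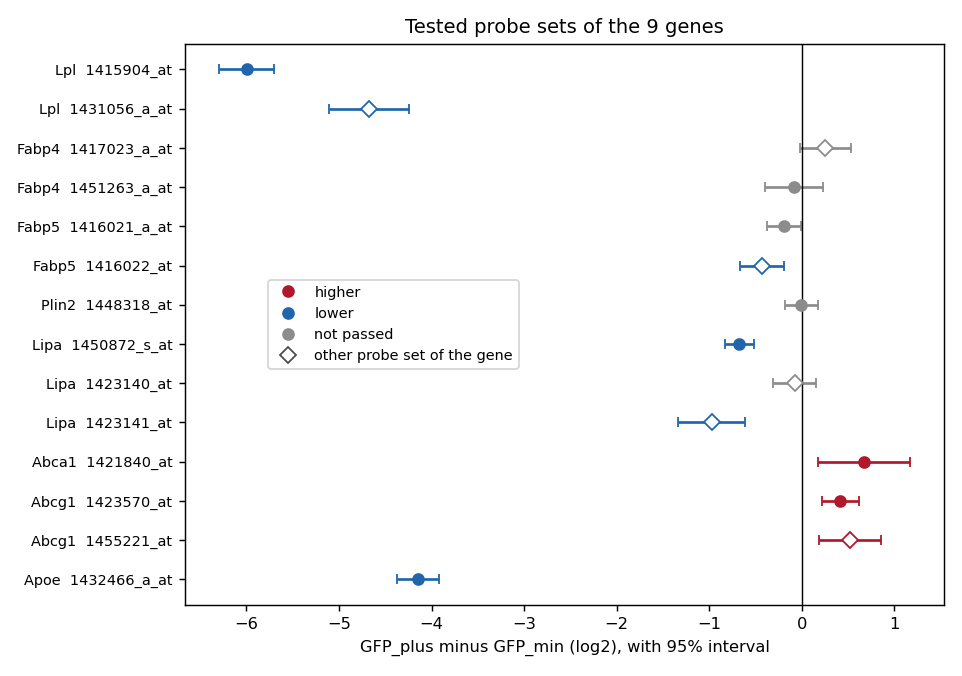
Difference GFP_plus minus GFP_min in log2 (horizontal axis) for the 14 tested probe sets of the 9 genes, with 95% intervals from limma (n = 3 arrays per group). Filled circles stand for the gene and open diamonds are its other probe sets, coloured by whether the adjusted p was under 0.05. The Lpl probe sets lie at −6.00 and −4.67 and Apoe at −4.15, and all others lie between −0.97 and 0.67.

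The promoters of the called genes Lipa, Abca1 and Apoe are shown since they changed in different directions between the same samples. RefSeq promoter entries (GRCm38.p6) were found for 5 of the 9 genes, and the 250 bases before the annotated start are printed 5′ to 3′ on the gene's strand, which is the minus strand for all 3. Capitals mark matches to 3 motifs searched on both strands, none of which overlaps another here: AGGTCA, a half-site of nuclear receptors, CACGTG, an E-box bound by TFEB and its relatives among others, and GAGGAA, a core of PU.1 sites. The stretch of Abca1 is chr4:53159896-53160145, that of Lipa is chr19:34527475-34527724, and that of Apoe, for 1 of its 3 annotated starts, is chr7:19699189-19699438.
Abca1: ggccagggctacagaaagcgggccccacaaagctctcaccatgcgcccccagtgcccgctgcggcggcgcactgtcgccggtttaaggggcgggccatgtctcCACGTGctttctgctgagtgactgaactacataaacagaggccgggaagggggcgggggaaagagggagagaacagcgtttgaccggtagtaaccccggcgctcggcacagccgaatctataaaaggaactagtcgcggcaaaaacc
Lipa: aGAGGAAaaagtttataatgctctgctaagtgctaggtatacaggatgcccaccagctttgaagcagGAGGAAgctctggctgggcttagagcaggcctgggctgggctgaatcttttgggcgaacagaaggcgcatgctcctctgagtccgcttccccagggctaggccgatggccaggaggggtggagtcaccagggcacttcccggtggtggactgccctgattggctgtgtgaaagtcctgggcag
Apoe: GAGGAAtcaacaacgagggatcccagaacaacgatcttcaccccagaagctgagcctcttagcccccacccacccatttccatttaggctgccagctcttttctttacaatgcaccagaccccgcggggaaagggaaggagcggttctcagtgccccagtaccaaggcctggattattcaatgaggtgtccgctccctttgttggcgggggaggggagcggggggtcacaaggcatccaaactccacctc
The Abca1 stretch held 1 CACGTG, which began 147 bases before the start and which 6.02% of 32851 promoters of this length held. The Lipa stretch held GAGGAA at 249 and 183 bases and the Apoe stretch at 250 bases before the start, a motif found in 23.3% of promoters on either strand. Of the other 2 Apoe starts, 1 held no GAGGAA and 1 held it at 132 bases. AGGTCA, found in 14.0%, had no exact match in these 3 stretches. Variants of the motifs were not searched, so the lack of a match does not show the lack of a site. A match is a run of letters and not a bound site.

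The other genes of lipid handling were taken from 8 lists with 89 genes, of which 62 were tested. In GFP_plus 17 of them were higher (27.4%) and 19 lower (30.6%), beside 21.0% and 27.6% of all tested genes, and their median difference was 0.04, beside 0.002 over all genes. Of the 19, Lsr, Lmf1 and Ppargc1b passed the level filter through GFP_min alone, and with values above the median required on all 6 arrays 16 were higher and 16 lower.

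Lipoprotein receptors and scavengers were lower in GFP_plus on 4 of the 9 tested genes and higher on 2 (median −0.01). Over all tested genes, 27.6% were lower and 21.0% higher, and the counts of lists this short can lie near these shares. Lrp1, an endocytic receptor that binds apolipoprotein E, averaged 3.40 ± 0.21 in GFP_plus and 8.21 ± 0.07 in GFP_min (SD, n = 3 each), a difference of −4.81 (limma adjusted p = 8.07e-09). Msr1, the class A scavenger receptor of macrophages, fell by 4.35 on its brightest probe set (adjusted p = 2.66e-08), and all 4 of its tested probe sets passed as lower, with a difference of −2.45 for their mean. Scarb1, the receptor for high-density lipoprotein, fell by 2.01 (adjusted p = 1.18e-06). Of 3 tested partners of lipoprotein lipase, Lmf1, which folds the lipase in the endoplasmic reticulum, was at least 2.23-fold lower, since it lay below the medians of all GFP_plus arrays. Gpihbp1, which anchors the lipase on capillaries, was too dim to be tested. Among genes of fatty acid transport and activation, 1 of 8 tested was higher and 1 lower: Slc27a4, a fatty acid transport protein, rose by 0.77 (adjusted p = 8.13e-05) and Dbi, the acyl-CoA-binding protein, fell by 0.91 (adjusted p = 5.80e-05), a call that ribosomal centring ended (−0.14, adjusted p = 0.181).

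Genes that build droplets moved both ways, with 4 of 11 tested higher, 2 lower and a median of 0.13. Of all tested genes, 21.0% were higher and 27.6% lower. Gpat3, which starts glycerolipid synthesis, rose by 1.04 (limma adjusted p = 3.49e-05). Lpin1, a phosphatidate phosphatase, fell by 2.52 (adjusted p = 1.48e-05), and Bscl2, which encodes the droplet assembly protein seipin, fell by 1.24 (adjusted p = 6.66e-07).

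Genes of droplet breakdown were all tested and all changed, 6 of 7 higher in GFP_plus and 1 lower, with a median of 0.59. Of all tested genes, 21.0% were higher and 27.6% lower. The list holds an inhibitor beside the lipases, so its count is no measure of breakdown. Mgll, monoacylglycerol lipase, averaged 9.18 ± 0.06 in GFP_plus and 8.42 ± 0.06 in GFP_min (SD, n = 3 each), a rise of 0.76 (limma adjusted p = 5.68e-05). Its call was shared by 3 of its 4 tested probe sets. G0s2, which inhibits the triglyceride lipase ATGL, rose by 0.53 (adjusted p = 5.36e-05), but with poly-A centring it did not pass (0.12, adjusted p = 0.391). Ces1d, a carboxylesterase, rose by 0.89 (adjusted p = 0.00125). The member that fell was Nceh1, a cholesteryl ester hydrolase of macrophages (−0.46, adjusted p = 0.0129). No member passed as lower without GFP_min replicate a or with median centring, and with ribosomal centring all 7 passed as higher. Pnpla2, which encodes ATGL itself, rose by 0.59 (adjusted p = 0.0133). Nceh1 and Pnpla2 were chosen after their values were seen. The list median stayed positive under every scaling tried (0.19 to 1.36), but 2 of its members passed upward with poly-A centring.

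Lysosomal genes of cholesterol release were lower in 5 of 7 cases and higher in none, beside 27.6% and 21.0% of all tested genes, and their median was −0.57. Ribosomal centring turned that median to 0.20, with 4 members passing upward and 1 downward. Npc2, which takes part in passing cholesterol out of the lysosome, averaged 11.07 ± 0.12 in GFP_plus and 12.41 ± 0.06 in GFP_min (SD, n = 3 each). Npc2 thus differed by −1.34 (limma adjusted p = 2.34e-07). Of its 4 tested probe sets 3 passed as lower, and the mean over all 4 differed by −1.81. Scarb2, a lysosomal membrane protein, fell by 0.78 (adjusted p = 5.71e-05), and Psap, the precursor of the saposins, fell by 0.62 (adjusted p = 4.58e-06), though with ribosomal centring Psap turned to 0.15 (adjusted p = 0.00923) and Scarb2 did not pass (−0.01, adjusted p = 0.882). Lipa, described above, belongs to the same compartment, and its main probe set had a fall of like size (−0.68). Its probe set 1423140_at did not follow (−0.07, limma adjusted p = 0.591), and ribosomal centring turned the main value to 0.10.

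Among the other genes of cholesterol efflux and oxysterols, 3 of 6 tested were lower and 1 higher, beside 27.6% and 21.0% of all tested genes. The list median was −0.50. It became 0.27 after ribosomal centring. Cyp27a1, the sterol 27-hydroxylase that makes an oxysterol ligand, fell by 4.24 (limma adjusted p = 2.63e-07). Apoc2, the apolipoprotein that activates lipoprotein lipase, averaged 7.12 ± 0.13 in GFP_plus and 9.29 ± 0.05 in GFP_min (SD, n = 3 each), a difference of −2.17 (adjusted p = 1.54e-07). Apoc1, which lies beside Apoe in the same gene cluster, fell by 1.02 (adjusted p = 0.00207). Its GFP_plus values of 3.25, 3.01 and 2.96 lay near the array medians, and with ribosomal centring it did not pass (−0.24, adjusted p = 0.248).

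Lipid-sensing regulators moved both ways, 3 of the 11 tested being higher and 2 lower (median 0.04), beside 21.0% and 27.6% of all tested genes. Mylip, a ubiquitin ligase induced by sterol-sensing receptors that degrades the LDL receptor, rose by 0.51 (limma adjusted p = 0.000227), but not past the threshold with poly-A centring (0.11, adjusted p = 0.484). Tfec, a relative of TFEB found in macrophages, fell by 1.23 (adjusted p = 1.73e-05). Tfeb itself (0.57, adjusted p = 0.0163) and its relative Tfe3 (0.36, adjusted p = 0.0476) rose instead. With poly-A centring no gene of this list passed as higher. Leaving out single samples left 1 to 3 of its genes higher, and 2 were higher with values above the median required on all 6 arrays. The coactivator gene Ppargc1b was at least 1.95-fold lower, since it lay below the medians of all GFP_plus arrays. Its call was lost with ribosomal centring (−0.28, adjusted p = 0.101). Nr1h3, the sterol-sensing receptor LXR alpha, was too dim to be tested, at a mean of 2.54 ± 0.06 in GFP_plus and 2.44 ± 0.15 in GFP_min (SD, n = 3 each). Pparg, the fatty acid receptor, lay just above the array medians and did not pass (0.04, adjusted p = 0.775). Tfeb, Tfe3, Nr1h3 and Pparg were chosen after their values were seen.

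**Figure D3:**
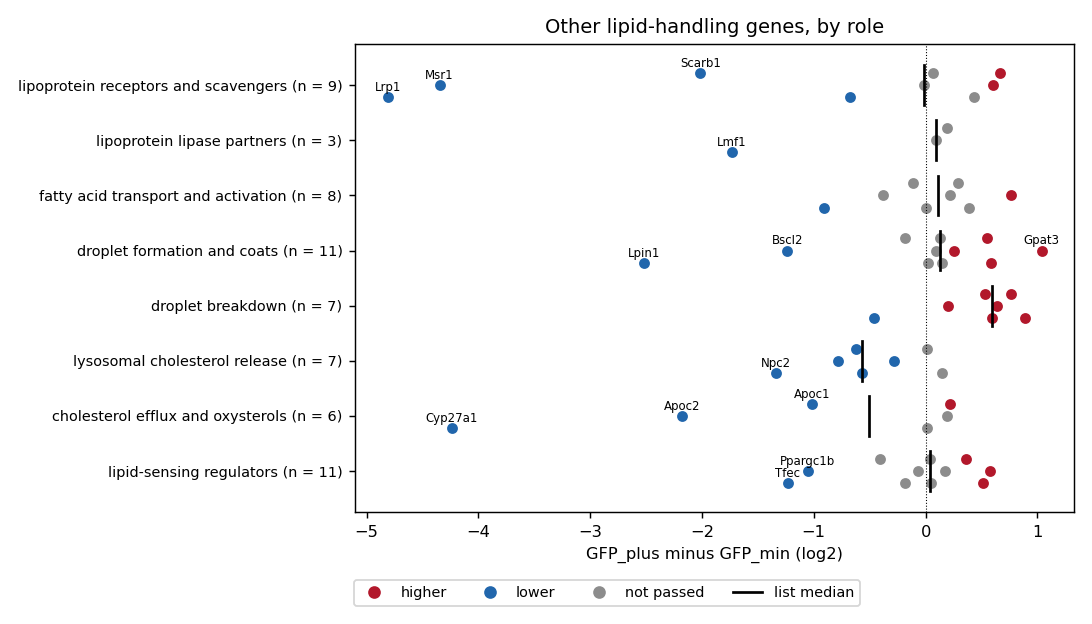
Difference GFP_plus minus GFP_min in log2 (horizontal axis) for the 62 tested genes of 8 lists of lipid handling, 1 point per gene, coloured by whether limma's adjusted p was under 0.05. Black bars are list medians, and the genes named by rule with a difference of at least 1 are labelled. Droplet breakdown has 6 red points of 7, and lysosomal cholesterol release has 5 blue points of 7.

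The level of a small difference depended on how arrays were scaled. The median difference over all tested genes was 0.002 on the deposited scale, 0.05 after quantile normalization, 0.20 with centring on the median of tested probe sets, 0.77 with ribosomal centring and −0.40 with poly-A centring. Of the genes called, 43.2% were higher in GFP_plus on the deposited scale, 50.2% after quantile normalization, 68.1% with median, 91.0% with ribosomal and 6.51% with poly-A centring. Beside these shifts, Lpl and Apoe were far lower under each of them (−6.40 to −5.23 and −4.55 to −3.38). Lipa passed as lower, and Abca1 and Abcg1 passed as higher, on the deposited scale and after quantile or median centring, and not under 1 of the other 2. Fabp4, Fabp5 and Plin2 passed as lower with poly-A centring (−0.49, −0.59 and −0.41) and as higher with ribosomal centring (0.69, 0.58 and 0.77), so their direction is not settled by these data. The gap between the 3′ and 5′ signal of Gapdh, a sign of RNA quality, was 0.59 to 0.66 in GFP_plus and 0.26 to 0.37 in GFP_min. That of Actb was 0.82 to 0.90 in GFP_plus and 0.79 to 0.83 in GFP_min. Their part in the results was not tested.

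**Figure D4:**
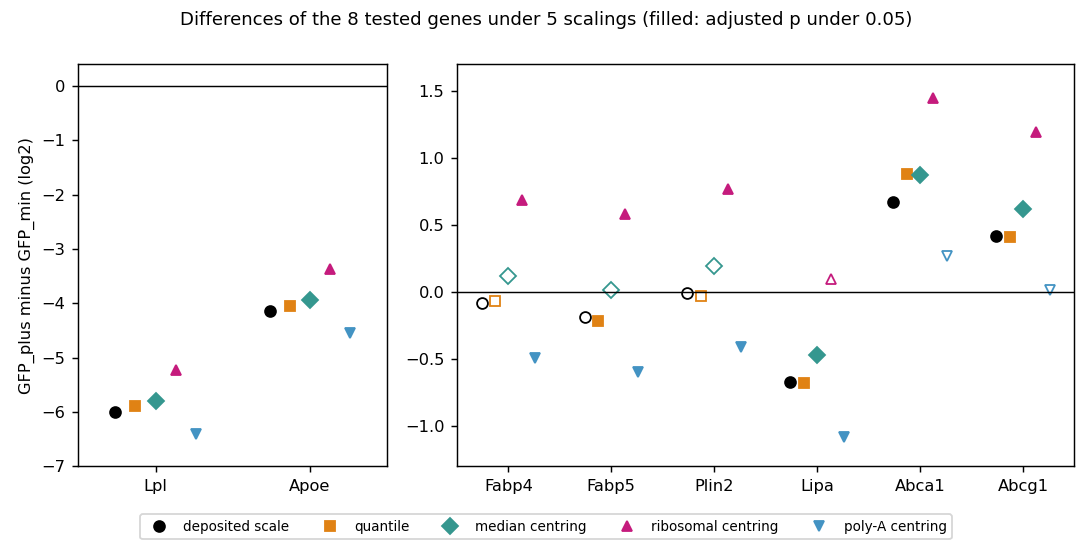
Difference GFP_plus minus GFP_min in log2 (vertical axis) of the 8 tested genes under 5 scalings of the arrays, filled where limma's adjusted p was under 0.05. The left panel has its own scale for Lpl and Apoe, which stay at −3.38 or below under each scaling, while Fabp4, Fabp5 and Plin2 take both signs.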

How the data were processed

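Total RNA of sorted marrow cells was amplified with a 3' IVT kit, labelled with biotin, and measured on 6 Affymetrix arrays, per the labels. The authors deposited log2 expression values, and GCRMA is the tool that the submitters' processing notes name. The sources used here give neither its version nor its settings. The log2 scale was read from the range of the values. Gene names came from the platform annotation in GEO, with symbols updated through a RefSeq gene table: 34945 had 1 symbol, 932 several (these name no gene) and 9160 none, with 64 control probe sets left out. Groups and replicate letters came from the sample titles.

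GFP_plus minus GFP_min was fitted by limma 3.58.1 under R 4.3.3, using lmFit and eBayes with trend. P-values were adjusted by Benjamini-Hochberg over all 22956 probe sets that exceeded their array's median on at least 3 of 6 arrays, with a threshold of 0.05. Where all arrays of a group lay below their medians, only a bound is given. The members, lists and tests were chosen with earlier results of these data known. Besides the members, up to 3 called genes per list with the smallest adjusted p were named. In simulated data with 200 of 10810 genes changed, the fit recovered 51% of changes of 0.5 log2 and 85% of those of 1 log2. A far larger share of genes was called in the real data, so these rates need not hold there. Samples with the same letter did not deviate together (correlations of −0.18, −0.30 and −0.22), so the letters were not taken as pairs. Alternatives changed the filter, variance model, array weights, scaling, probe sets, replicate block and sample set. Python 3.11.15 with matplotlib 3.10.9 drew the figures.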

Additional observations from a re-analysis of the deposited data

How the results depend on the processing

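The falls of Lpl and Apoe kept their direction and call under all 16 alternatives (−6.40 to −5.23 and −4.55 to −3.38). Counts of genes higher and lower were 2275 and 2988 on the deposited scale, 8491 and 844 with ribosomal centring, 420 and 6028 with poly-A centring, and with median centring 4472 were higher. Of the members, 5 were higher with ribosomal centring, and 0 were higher and 6 lower with poly-A centring. With the replicate block 1 member was higher, since Abca1 lost its call (adjusted p = 0.0618), as did Abcg1 on 1455221_at (0.0502). The other members kept their calls with the block. Of the other lipid genes, 45 were higher and 10 lower with ribosomal centring, 4 and 33 with poly-A centring, and 30 were higher with median centring. Their median moved to 0.10 with quantile normalization, 0.24 with median, 0.81 with ribosomal and −0.36 with poly-A centring.

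Leaving out each sample in turn gave 1747 to 2084 genes higher and 2676 to 2772 lower, 1 to 2 members higher and 3 to 4 lower, 14 to 17 other lipid genes higher and 18 to 20 lower, and a median of those genes of 0.03 to 0.07. The sign of 2 uncalled members turned in some of these sets, Fabp4 (−0.21 to 0.015) and Plin2 (−0.052 to 0.075).

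Signs also turned with ribosomal centring for Fabp4 (0.69), Fabp5 (0.58, and 0.34 on 1416022_at), Plin2 (0.77), Lipa (0.10, and 0.70 on 1423140_at) and Psap (0.15). With median centring they turned for Fabp4 (0.12), Fabp5 (0.013), Plin2 (0.20) and Lipa on 1423140_at (0.13), with poly-A centring for Fabp4 on 1417023_a_at (−0.15), with array weights for Plin2 (0.057) and with the mean of probe sets for Fabp4 (0.086). Centring adds the same amount to every gene of an array, so its turns follow from its construction, and for array weights and the mean of probe sets the cause was not tested. Over members, their probe sets and named genes, 502 of the recomputed values kept direction and call, 20 lost the call, 11 gained one and 17 turned. The filter on all 6 arrays left no value for some dim genes.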

Other observations

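The genes whose profile over the 6 arrays was most like that of Lpl were Abca9, Capn2 and Prdx4, whose values differed from it by a root mean square of 0.14, 0.14 and 0.16 log2 after each gene was centred on its own mean. Their differences between GFP_plus and GFP_min were −5.87, −6.13 and −5.85. For Abca1, the member with the largest rise, they were Phldb2, Lrrc27 and Fam221a (0.13, 0.13 and 0.14), with differences of 0.76, 0.80 and 0.63. With 2 groups of 3 arrays this likeness rests mostly on the difference between the groups.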
